A study of Rattus norvegicus with 6 samples.

Results

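The genes of the RNA polymerase II (Pol II) transcription machinery were examined in polyA RNA-seq of cultured cortical neural progenitors of the rat. Members were taken by gene name, as every name in the RNA-seq tables that begins with Polr2, Gtf2, Med or Taf followed by the letter or number of a subunit, together with *Tbp*. This gave 79 of the 17337 gene names, with no measured value used in the choice. The cells were untreated and came from cortices of Sprague Dawley embryos of either sex at embryonic day 14. They were grown as adherent cultures in medium with a neural supplement and the growth factors EGF and bFGF, and were taken for RNA after the second passage. There was 1 condition with 2 biological replicates, A and B, which each had 2 technical RNA-seq libraries (A1 and A2, B1 and B2), so that no test between conditions exists and no p-value is given. The labels do not say how many embryos were pooled for a replicate. The mRNA level is given as FPKM, a count of sequenced fragments relative to transcript length and library size, with technical libraries averaged first and the mean ± SD taken over the 2 biological replicates.

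Pol II synthesises mRNA and is brought to promoters by general transcription factors. TFIID, which holds the TATA-binding protein and its associated factors (TAFs), recognises the core promoter. TFIIA and TFIIB stabilise this complex, TFIIF comes with the polymerase, and TFIIE and TFIIH open the DNA. Mediator is a large complex of head, middle, tail and kinase modules that connects DNA-bound activators to the polymerase. These genes are usually regarded as expressed in all cells, while a few have paralogues known from germ cells or other restricted tissues.

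Library B2 had 28.1% of the depth of B1, read from the coverage that equals 1 FPKM, and the other libraries were within 10% of B1. All 79 names had a value above 0 in A1, A2 and B2, and 78 did in B1. Each of the 10 progenitor markers was listed, with *Sox2* between 356 and 592 FPKM. The 10 markers of meningeal and mesenchymal cells, among them *Col1a1* and *Dcn*, summed to 657 to 677 FPKM in replicate A and to 2506 to 3029 FPKM in replicate B, and all 10 were higher in both libraries of B than in both of A. The progenitor markers summed to 21050 to 23127 FPKM in A and to 10114 to 10873 FPKM in B, most of it from *Fabp7*. Without *Fabp7* the other 9 summed to 4250 and 4570 FPKM in A1 and A2, and to 3594 and 5388 FPKM in B1 and B2. Of the 10 progenitor markers, 5 had both libraries of A above both of B and the others overlapped. Microglial markers summed to at most 2.77 FPKM and endothelial markers to at most 2.37 FPKM in any library. In bulk RNA a change in the proportion of cells and a change in RNA per cell cannot be told apart.

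The levels ranged over more than 3 orders of magnitude, but few genes were low. A mean level of 1 FPKM or more was reached by 77 of the 79 members (97.5%), against 60.5% of all gene names. The median over the 79 members was 29.4 FPKM, against 3.83 FPKM over all names and 16.6 FPKM over the 10481 names that averaged 1 FPKM or more. In all, 8 members were at 100 FPKM or more, 56 between 10 and 100 FPKM, 13 between 1 and 10 FPKM and 2 below 1 FPKM. Among the genes at 1 FPKM or more, the members had a median percentile of 66.2, and 25 of 77 (32.5%) were in the top quartile. Above percentile 90 there were 8 members, and the highest, *Polr2f*, was at percentile 95.6. Most members were thus moderately expressed, with 56 between 10 and 100 FPKM.

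To show the start regions behind these levels, promoters are printed for the Pol II subunit and the TFIID subunit with the highest mean level (*Polr2f* and *Taf10*), for the lowest member (*Taf7l*) and for a low subunit of TFIIA (*Gtf2a1*). Each runs from 250 bases before to 50 bases after the annotated RefSeq start in the GRCr8 assembly, which differs from the rn6 build of the expression tables. Capitals mark matches on either strand to the motifs searched, which were the TATA box TATAAA, the CCAAT box CCAAT, the GC box GGGCGG, the ETS motif CCGGAAG and the longer motifs of NRF1 and YY1. The motifs were chosen after the levels had been seen. Matches of different motifs were allowed to overlap.
Polr2f, chr7:112592814-112593113, plus strand: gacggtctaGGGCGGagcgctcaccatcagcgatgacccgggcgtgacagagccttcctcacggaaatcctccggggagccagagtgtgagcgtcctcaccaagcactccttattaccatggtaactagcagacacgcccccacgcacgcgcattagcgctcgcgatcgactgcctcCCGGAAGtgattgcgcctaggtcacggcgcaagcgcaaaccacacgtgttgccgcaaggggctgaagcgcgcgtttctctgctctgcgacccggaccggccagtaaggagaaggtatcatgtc
Taf10, chr1:169508159-169508458, minus strand: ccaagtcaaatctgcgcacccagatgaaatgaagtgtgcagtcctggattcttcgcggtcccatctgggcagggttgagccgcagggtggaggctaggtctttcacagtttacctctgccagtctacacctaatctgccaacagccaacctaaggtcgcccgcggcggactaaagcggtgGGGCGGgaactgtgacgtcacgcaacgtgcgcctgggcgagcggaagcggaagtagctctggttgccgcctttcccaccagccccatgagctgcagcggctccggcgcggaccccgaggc
Taf7l, chrX:101968236-101968535, minus strand: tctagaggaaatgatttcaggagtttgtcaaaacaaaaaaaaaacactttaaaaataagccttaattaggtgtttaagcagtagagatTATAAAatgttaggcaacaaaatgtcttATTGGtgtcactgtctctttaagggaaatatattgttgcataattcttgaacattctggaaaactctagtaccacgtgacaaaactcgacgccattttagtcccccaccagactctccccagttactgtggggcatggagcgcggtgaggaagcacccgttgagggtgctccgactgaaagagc
Gtf2a1, chr6:116252171-116252470, minus strand: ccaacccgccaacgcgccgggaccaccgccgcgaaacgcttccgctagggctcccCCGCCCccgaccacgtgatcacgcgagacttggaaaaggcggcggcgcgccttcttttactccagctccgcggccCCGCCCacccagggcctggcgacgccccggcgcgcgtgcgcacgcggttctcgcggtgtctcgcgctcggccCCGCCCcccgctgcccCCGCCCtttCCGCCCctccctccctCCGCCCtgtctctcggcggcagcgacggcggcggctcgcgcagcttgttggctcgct

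The first promoter holds matches to the ETS motif and the GC box, and the second and the fourth to the GC box. That of *Taf7l* holds matches to the TATA and CCAAT box motifs, both far upstream of the annotated start. The number of CG dinucleotides was 30 for *Polr2f*, 23 for *Taf10*, 49 for *Gtf2a1* and 7 for *Taf7l*. RefSeq promoters were matched by symbol for 67 of the 79 members. Their median was 22 CG dinucleotides in 300 bases, the same as for 7976 promoters of genes averaging 1 FPKM or more and above the 7 for all 27456 promoters. Fewer than 10 were found for *Med8* and *Taf7l* only (2.99%), against 14.2% of promoters of genes at 1 FPKM or more. *Med8* had a mean of 23.4 FPKM, so a promoter poor in CG was seen with both a moderate and a very low level.

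The GC box was found in 49 of the 67 promoters (73.1%), against 64.8% of promoters of genes at 1 FPKM or more and 34.7% of all promoters. The ETS motif was found in 21 (31.3%), against 18.4% and 9.21%. The letters of the TATA box were found in 3 (4.48%), those of *Taf7l*, *Taf13* and *Med16*, against 6.07% and 14.3%. The CCAAT box was in 26 (38.8%), against 38.1% and 37.7%. The NRF1 motif was in 2 (2.99%), against 2.12% and 0.936%, and the YY1 motif in 2 (2.99%), against 2.08% and 0.801%. These are matches of letters at any place in a fixed window, whatever the distance to the start. A match to the TATA box letters thus need not be a working TATA box, and binding was not measured.

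Of the Pol II subunits 11 were listed, and all were expressed. *Polr2a*, which encodes the largest subunit with the C-terminal domain, was not analysed here. Levels ran from 210 ± 3.84 FPKM (SD, n = 2) for *Polr2f* to 31.6 ± 3.74 FPKM for *Polr2b*, with rows of the same name added up. *Polr2d* was lower than *Polr2b* in A1 and B2. *Polr2b* encodes the second largest subunit and part of the catalytic centre. The median was 74.5 FPKM. The SD of log2 FPKM among the subunits was 0.98, below that of Mediator, TFIID and the pooled TFIIA to TFIIH genes and less than the 2.09 over all genes averaging 1 FPKM or more.

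*Polr2f*, at chr7:120380597-120390042 on the plus strand of rn6, encodes a subunit shared with Pol I and Pol III. It had 196.5 and 228.9 FPKM in A1 and A2, and 216 and 198.5 FPKM in B1 and B2. The replicates overlapped and differed by -0.03 on the log2(FPKM + 1) scale. *Polr2e*, another shared subunit, had 166.9 and 179.2 FPKM in A, and 182.9 and 202.1 FPKM in B, so that both libraries of B were above both of A.

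*Polr2l*, the third of the high subunits and also shared by the polymerases, had 153.4 and 175.5 FPKM in A1 and A2, and 179.5 and 269.1 FPKM in B1 and B2. Library B2 stood well above the others, and the mean of 194 ± 42.3 FPKM (SD, n = 2) had the widest spread of the Pol II subunits. Its row in the tables runs over 439 kb and holds other whole genes, so the value is uncertain.

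The 5 shared subunits *Polr2e*, *Polr2f*, *Polr2h*, *Polr2k* and *Polr2l* had a median of 183 FPKM, against 65.6 FPKM for the 6 listed subunits found only in Pol II. The ranges overlapped, from 44.7 to 210 FPKM for the shared subunits and from 31.6 to 91.8 FPKM for the others. The value of *Polr2l* is uncertain, and the median of the shared subunits would fall if it were below *Polr2e*. *Polr2h* and *Polr2i* are sums of 2 rows. With the highest row they had 22.4 and 28.6 FPKM, which would lower the lower end of both ranges. *Polr2k* had 69.6 and 77.7 FPKM in A, and 59.4 and 70.0 FPKM in B. *Polr2h* had 50.3 and 51.4 FPKM in A, and 43.7 and 33.5 FPKM in B, with both B libraries lower. These shared subunits were below *Polr2j* in every library.

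Among the subunits found only in Pol II, *Polr2j* had 81.1 and 100.1 FPKM in A, and 105.3 and 80.9 FPKM in B. Its partner in the core assembly, *Polr2c*, had 77.1 and 83.1 FPKM in A, and 72.4 and 65.6 FPKM in B. The log2 ratio of *Polr2c* to *Polr2j* was -0.30 ± 0.18 (SD, n = 2), so these partners were at nearly equal levels. The stalk subunits *Polr2g* and *Polr2d* were less alike.

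*Polr2g* had 81.6 and 88.6 FPKM in A, and 75.01 and 73.6 FPKM in B. *Polr2d* had 32.7 and 37.8 FPKM in A, and 32.5 and 26.0 FPKM in B. *Polr2g* was 2.31 to 2.83 times higher in every library. These partners, and those of the factors described later, were listed after their values had been seen.

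*Polr2b* had 33.5 and 35.0 FPKM in A, and 30.0 and 27.9 FPKM in B. *Polr2i*, a zinc ribbon subunit that takes part in start site choice and fidelity, had 58.1 and 64.4 FPKM in A, and 57.6 and 46.4 FPKM in B. In the order of mean levels, 9 of the 10 neighbouring pairs of Pol II subunits had overlapping ranges over the libraries, all but *Polr2e* and *Polr2j*. Within libraries, 5 of the 10 pairs kept the same order in all 4. *Polr2h* and *Polr2i* each have 2 rows at different positions with almost equal values, for *Polr2h* 25.1 FPKM in each in A1, and the sums given here would be lower by a factor of about 2 if a single row were used. With the highest row, *Polr2i* had 28.6 ± 3.28 FPKM and *Polr2h* 22.4 ± 4.33 FPKM (SD, n = 2), both below *Polr2b*.

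**Figure D1:**
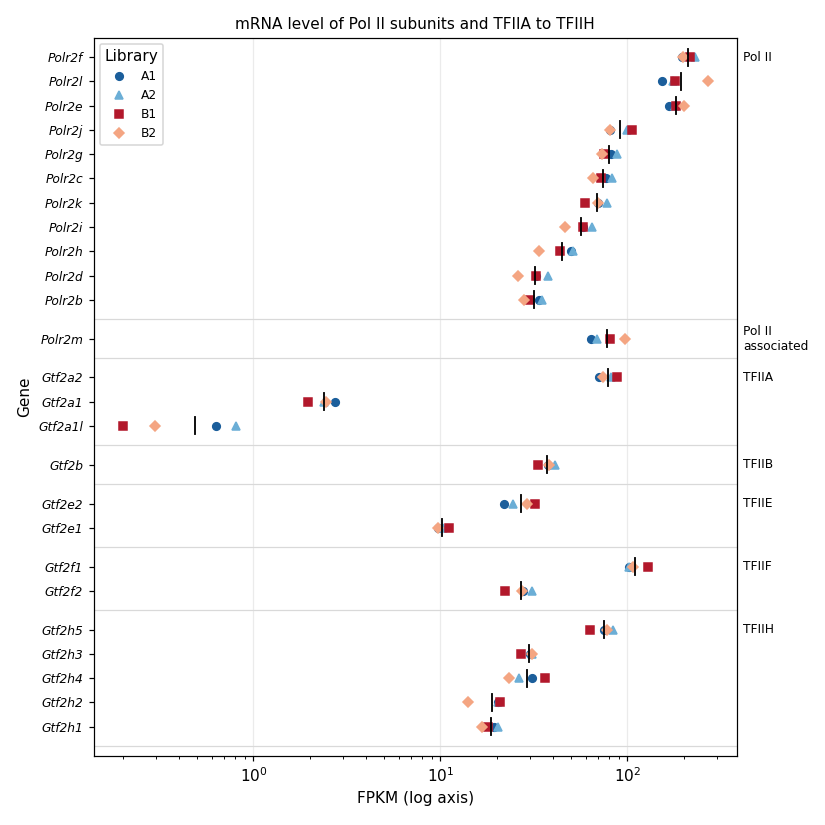
FPKM (log axis) of the 11 Pol II subunits, *Polr2m* and the TFIIA to TFIIH genes, with a symbol for each of the libraries A1, A2, B1 and B2 and a black bar at the mean of the replicates. *Polr2f*, *Polr2l* and *Polr2e* stand apart at the top of Pol II, while *Gtf2a1* and *Gtf2a1l* lie far to the left of *Gtf2a2*.

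*Polr2m* encodes Gdown1, a protein that associates with Pol II and is not a core subunit. It had 63.8 and 68.8 FPKM in A, and 80.4 and 96.9 FPKM in B, a mean of 77.5 ± 15.8 FPKM (SD, n = 2). Both libraries of B were above both of A, with a difference of 0.41 on the log2(FPKM + 1) scale.

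Subunits of the other nuclear polymerases, from a list that was not part of the selection, had lower medians, with ranges that overlapped that of Pol II. The sets are not alike, since the 5 shared subunits were counted with Pol II only. The 6 listed subunits found only in Pol II had a median of 65.6 FPKM. *Polr2a*, *Polr1d* and *Polr3a* were not analysed here. The 7 listed genes of Pol I had a median of 18.0 FPKM and the 10 listed genes of Pol III a median of 19.9 FPKM, and all 17 were above 1 FPKM. The highest were *Znrd1* of Pol I at 53.1 FPKM and *Polr3k* of Pol III at 45.5 FPKM, with means above those of *Polr2h*, *Polr2d* and *Polr2b*. In A1 and A2, however, *Polr2h* was above *Polr3k*. The second largest subunits can be set side by side, since FPKM is per length of transcript. *Polr1b* of Pol I had 5.86 and 5.60 FPKM in A, and 5.57 and 4.19 FPKM in B. *Polr3b* of Pol III had 6.49 and 6.69 FPKM in A, and 7.16 and 5.34 FPKM in B. *Polr2b* was above both in every library.

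The general factors TFIIA, TFIIB, TFIIE, TFIIF and TFIIH were represented by 13 members with a median of 27.1 FPKM, of which 12 averaged 1 FPKM or more. In TFIIA, which stabilises the binding of TBP to DNA, *Gtf2a2* encodes the small subunit and *Gtf2a1* the precursor of the large ones. *Gtf2a2* had 70.9 and 82.2 FPKM in A, and 87.6 and 74.3 FPKM in B.

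*Gtf2a1*, at chr6:115324880-115352659 on the minus strand of rn6, had 2.75 and 2.39 FPKM in A, and 1.96 and 2.46 FPKM in B. Its mean was 2.39 ± 0.258 FPKM (SD, n = 2), the lowest of the members above 1 FPKM. The log2 ratio of *Gtf2a2* to *Gtf2a1* was 5.05 ± 0.22 (SD, n = 2), or 25.8- to 44.8-fold in single libraries. Thus the widest gap among the binding partners compared was found within TFIIA.

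In TFIIF, which escorts Pol II to the promoter, *Gtf2f1* had 101.9 and 101.7 FPKM in A, and 129.3 and 107.5 FPKM in B. *Gtf2f2* had 27.6 and 31.1 FPKM in A, and 22.2 and 27.4 FPKM in B. *Gtf2f1* was 3.27 to 5.83 times higher. In TFIIE, which recruits TFIIH, *Gtf2e2* had 21.8 and 24.6 FPKM in A, and 32.0 and 29.0 FPKM in B, against 9.69, 10.3, 11.2 and 9.67 FPKM in A1, A2, B1 and B2 for *Gtf2e1*. The log2 ratio was 1.38 ± 0.24 (SD, n = 2).

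*Gtf2b*, the single gene of TFIIB, had 37.4 and 40.9 FPKM in A, and 33.3 and 38.1 FPKM in B, with overlap between the replicates. TFIIH, which carries helicases and a kinase, was represented by *Gtf2h1* to *Gtf2h5*. The smallest subunit, *Gtf2h5*, was highest with 75.4 and 83.6 FPKM in A, and 63.0 and 77.9 FPKM in B. The other members of TFIIH had means from 18.6 FPKM for *Gtf2h1* to 29.8 FPKM for *Gtf2h3*. The TFIIH helicase genes *Ercc2* and *Ercc3* and the kinase partners *Ccnh* and *Mnat1* are not members by name and had means of 20.9 to 39.9 FPKM, in the range of the core.

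TFIID was represented by 15 members, *Tbp*, *Taf1* to *Taf3*, *Taf5* to *Taf13*, *Taf7l* and *Taf9b*, with a median of 15.1 FPKM. *Taf4* and *Taf4b* were not analysed here. The 14 subunits averaging 1 FPKM or more had an SD of log2 FPKM of 1.65, above that of Pol II, of Mediator and of the pooled TFIIA to TFIIH genes, with a 43.5-fold distance between the means of *Taf10* and *Taf9b*. *Tbp*, which encodes the DNA-binding subunit, had 13.1 and 14.0 FPKM in A, and 14.9 FPKM in both libraries of B. Its mean of 14.2 ± 0.931 FPKM (SD, n = 2) was close to the median of the complex.

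*Taf10*, a histone-fold subunit shared with the coactivator SAGA, lies at chr1:170585160-170586428 on the minus strand of rn6. It had 174.4 and 192.5 FPKM in A, and 152.6 and 173.9 FPKM in B, and was the highest TFIID subunit in each library. Its partners in TFIID were much lower. *Taf8* had a mean of 15.1 ± 0.452 FPKM and *Taf3*, which carries a domain that reads a histone mark, a mean of 7.64 ± 0.142 FPKM (SD, n = 2). *Taf10* was 9.69 to 13.4 times higher than *Taf8* and 18.3 to 25 times higher than *Taf3*.

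The histone-fold partners *Taf9* and *Taf6* were closer. *Taf9* had 86.2 and 94.6 FPKM in A, and 90.5 and 81.8 FPKM in B, and *Taf6* had a mean of 51.3 ± 1.45 FPKM (SD, n = 2). The log2 ratio was 0.78 ± 0.09. *Taf9* overlaps *Ak6* on the same strand in the tables, so reads of these genes may not be fully separated.

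*Taf13* and *Taf11* form another histone-fold pair. *Taf13* had 94.9 and 104.5 FPKM in A, and 52.8 and 61.6 FPKM in B. *Taf11* had 39.7 and 37.6 FPKM in A, and 34.1 and 32.3 FPKM in B. Both genes had their A libraries above their B libraries, with a difference of -0.79 for *Taf13* and -0.22 for *Taf11* on the log2(FPKM + 1) scale. *Taf13* was 2.39 and 2.78 times higher than *Taf11* in A, and 1.55 and 1.91 times higher in B.

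*Taf1*, the largest TAF, had 12.7 and 10.02 FPKM in A, and 7.36 and 8.35 FPKM in B, with no overlap. *Taf2*, which contacts the initiator region of the promoter, had 15.2 and 15.5 FPKM in A, and 10.9 and 10.7 FPKM in B, again with A higher. *Taf5*, a WD-repeat subunit, had 4.34 and 4.26 FPKM in A, and 4.03 and 4.31 FPKM in B, with overlap. *Taf15*, an RNA-binding protein of the FET family that associates with TFIID, had 68.4 ± 2.01 FPKM (SD, n = 2).

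**Figure D2:**
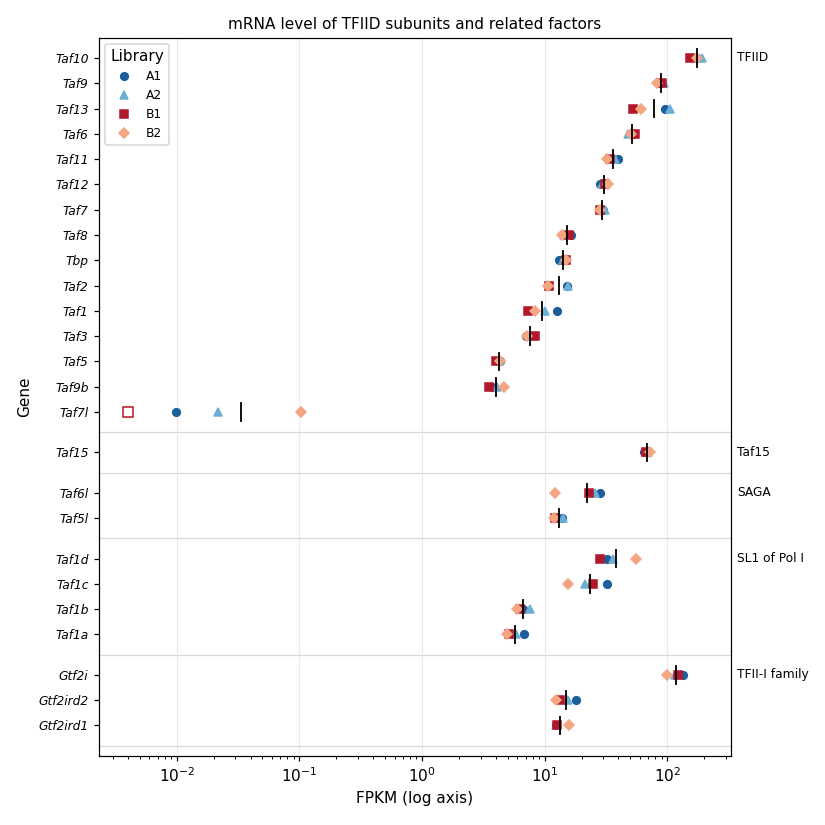
FPKM (log axis) of TFIID subunits and related factors in libraries A1, A2, B1 and B2, with a black bar at the mean of the replicates. *Taf10* is highest and *Taf7l* lowest, and the open symbol at the left edge marks the library (B1) where *Taf7l* was listed at 0.

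The names also match factors that are not subunits of Pol II or of the general factors described above. *Taf1a*, *Taf1b*, *Taf1c* and *Taf1d* belong to SL1, the TBP complex of Pol I, and had means of 5.70, 6.61, 23.4 and 38.1 FPKM. *Taf1d* was highest in B2, with 32.4, 36.2 and 28.4 FPKM in A1, A2 and B1 and 55.2 FPKM in that library. *Gtf2i*, which encodes the signal-responsive factor TFII-I, had 133.5 and 116.4 FPKM in A, and 122.0 and 99.9 FPKM in B. Its mean of 118 ± 9.91 FPKM (SD, n = 2) was near that of *Gtf2f1*, the highest of the TFIIA to TFIIH genes, at 110 ± 11.7 FPKM, and their libraries overlapped.

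Mediator was represented by 29 members, all above 1 FPKM on average, with a median of 28.0 FPKM. *Med13l* was not analysed here. The medians were 26.0 FPKM for the 9 head genes, 30.2 FPKM for the 9 middle genes, 35.7 FPKM for the 7 tail genes and 5.32 FPKM for the 3 members of the kinase module. The last median leaves out the kinase and cyclin genes of that module, *Cdk8*, *Cdk19* and *Ccnc*, whose means were all above it. The SD of log2 FPKM over the complex was 1.36. The levels of the head, middle and tail genes overlapped broadly, and 1 gene in each of the middle and tail modules was above 100 FPKM.

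The tail, which receives many activators, held the gene with the highest mean, although the middle gene *Med10* was above it in A2. *Med25*, at chr1:100874976-100887853 on the minus strand of rn6, had 132 and 122.1 FPKM in A, and 143.9 and 121.4 FPKM in B. *Med16* and *Med29* followed with means of 47.1 and 42.7 FPKM. The lowest tail gene was *Med23*, a target of Ras-dependent activators, with 17.4 ± 2.03 FPKM (SD, n = 2). *Med27* was the only tail gene whose replicates did not overlap, with 35.8 and 39.1 FPKM in A, and 27.2 and 32.4 FPKM in B.

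In the middle module *Med10* had 119.4 and 136.7 FPKM in A, and 118.2 and 99.4 FPKM in B. *Med31* had 71.1 and 78.6 FPKM in A, and 66.4 and 48.6 FPKM in B. These small subunits were above the other middle genes in every library. *Med1*, which binds nuclear receptors, had 6.08 and 5.28 FPKM in A, and 3.31 and 4.94 FPKM in B, and was the lowest of the module. *Med26*, which connects Mediator to elongation factors, had 8.07 ± 0.441 FPKM (SD, n = 2).

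The head, which contacts Pol II, ran from 50.4 ± 0.114 FPKM for *Med22* to 8.45 ± 1.31 FPKM for *Med17* (SD, n = 2), which encodes a central subunit of the head. *Med22* and *Med17* both have rows of over 200000 bases that hold other whole genes, so both ends of this range are uncertain. In B2 *Med22* was listed as 2 rows of 24.6 and 24.5 FPKM, which sum to about the value of the joined row in the other libraries. Each of these rows was below *Med6*, which had 37.9 FPKM in B2. *Med28* had 22.9 and 25.9 FPKM in A, and 33.0 and 33.3 FPKM in B, with B higher. *Med8* had 31.8 and 24.7 FPKM in A, and 20.8 and 16.2 FPKM in B, with A higher.

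*Med14*, the backbone that joins the modules, had 2.88 and 2.60 FPKM in A, and 2.36 and 2.63 FPKM in B. At 2.61 ± 0.172 FPKM (SD, n = 2) it had the lowest mean of the Mediator genes, 49.7-fold below *Med25*, although *Med12l* was lower in B1 and B2. In the kinase module, which binds Mediator reversibly, *Med12* had a mean of 19.7 FPKM, while *Med13* and *Med12l* were lower. *Med13* had 5.87 and 5.22 FPKM in A, and 3.18 and 7.04 FPKM in B, with the 2 libraries of B on either side of A. The kinase and cyclin genes of this module, *Cdk8*, *Cdk19* and *Ccnc*, are not members by name and had means of 27.0, 16.4 and 13.7 FPKM.

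**Figure D3:**
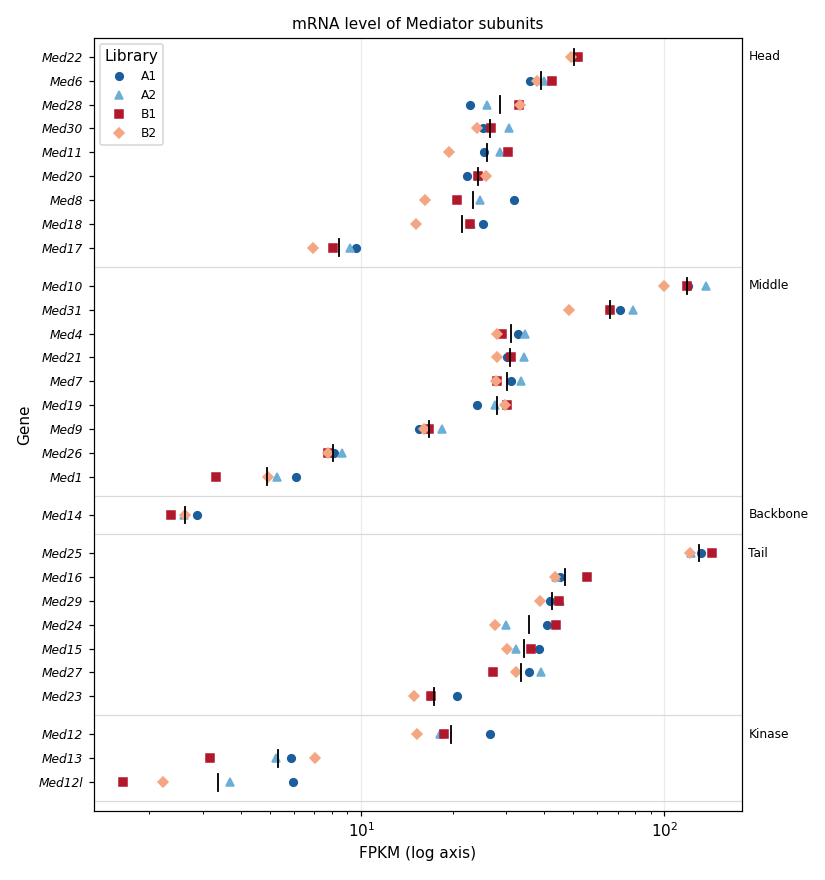
FPKM (log axis) of 29 Mediator genes by module in libraries A1, A2, B1 and B2, with a black bar at the mean of the replicates. *Med25* and *Med10* are highest, and *Med14*, *Med12l*, *Med1* and *Med13* are lowest.

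Paralogues were compared in 9 of the 13 pairs listed, as log2 of the FPKM ratio in each library. *Taf7* encodes a TFIID subunit and *Taf7l* its paralogue known from germ cells. *Taf7* had 29.9 and 31.1 FPKM in A, and 28.3 and 28.2 FPKM in B. *Taf7l*, at chrX:105292340-105308554 on the minus strand of rn6, had 0.00990 and 0.0216 FPKM in A, was listed at 0 in B1 and had 0.103 FPKM in B2. The mean read depth over the gene was at most 0.702 in any library, and no ratio is given because of the 0.

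*Gtf2a1l*, a TFIIA paralogue known from testis, had 0.631 and 0.812 FPKM in A, and 0.201 and 0.296 FPKM in B, at mean read depths of 15.3, 18.4, 4.89 and 2.02. Both libraries of A were above both of B. *Gtf2a1* was 2.95- to 4.35-fold higher in A and 8.29- to 9.74-fold higher in B. Of the 7 germ cell markers listed, the highest value in any library was 1.6 FPKM, for *Sycp3*, and the markers summed to 0.928 to 1.66 FPKM. The TBP paralogue *Tbpl2*, which acts in oocytes, was listed at 0 in all 4 libraries.

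*Tbpl1*, the other TBP paralogue, was expressed above *Tbp*. It had 37.9 and 39.7 FPKM in A, and 43.0 and 35.8 FPKM in B, and the log2 ratio of *Tbp* to *Tbpl1* was -1.46 ± 0.08 (SD, n = 2). *Taf5l*, which belongs to SAGA, was likewise above its TFIID paralogue *Taf5*, with 13.9 and 14.2 FPKM in A, and 12.1 and 11.9 FPKM in B and a log2 ratio of *Taf5* to *Taf5l* of -1.61 ± 0.13. For both pairs the order was the same in every library.

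For *Taf6* and the SAGA gene *Taf6l* the TFIID gene was the higher, with *Taf6* 1.87 to 1.89 times higher in A and 2.37 and 4.18 times higher in B1 and B2. *Taf6l* had 28.0 and 25.6 FPKM in A, and 22.9 and 12.1 FPKM in B. *Taf9* was 17.7 to 25.8 times higher than *Taf9b*, which had 3.98 ± 0.123 FPKM (SD, n = 2). *Gtf2i* was 6.33 to 10.7 times higher than *Gtf2ird1* and 7.42 to 9.07 times higher than *Gtf2ird2*. *Cdk8* was 1.51 to 1.81 times higher than *Cdk19*.

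*Med12l*, the paralogue of *Med12*, had the largest difference between replicates of the 77 members on the log2(FPKM + 1) scale. *Med12* had 26.6 and 18.2 FPKM in A, and 18.7 and 15.3 FPKM in B, and the replicates overlapped. *Med12l*, at chr2:149213134-149316569 on the plus strand of rn6, had 5.96 and 3.68 FPKM in A, and 1.64 and 2.22 FPKM in B. Both libraries of A were above both of B, with a difference of -0.97 on the log2(FPKM + 1) scale. *Med12* was 4.47 and 4.95 times higher than *Med12l* in A, and 11.4 and 6.89 times higher in B.

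To ask how steady the machinery was between the cultures, the replicates were compared as log2(FPKM + 1), a scale that understates changes of low genes. A gene was counted as differing when it averaged 1 FPKM or more, the difference was at least 1, and no library of A lay within the range of B or the reverse. None of the 77 members met this rule, against 645 of 10481 genes (6.15%). The median absolute difference was 0.18 for the members, 0.24 for all genes tested and 0.21 for the 6636 genes averaging 10 FPKM or more. A difference of at least 0.5 was found for 4 members (5.19%), against 21.7% of the genes tested, and these were *Med12l* (-0.97), *Taf13* (-0.79), *Taf6l* (-0.65) and *Med8* (-0.58).

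All 4 were lower in replicate B. The count of 0 depended on single libraries, since *Med12l* met the rule without A2 or without B2, and *Taf6l* without B1. *Taf6l* was lowest in B2. Meningeal and mesenchymal markers summed to more in B. Oligodendrocyte lineage markers summed to 264 and 290 FPKM in A, and to 702 and 360 FPKM in B. Of the 10 neuronal markers, 6 had both libraries of A above both of B and 1 the reverse, with sums of 229 and 257 FPKM in A, and 199 and 251 FPKM in B. The part of these cell type markers in the differences was not tested.

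Smaller differences leaned in the same direction. Both libraries of A were above both of B for 30 of the 77 members (39.0%), against 32% of the genes tested. Both libraries of B were above both of A for 10 members (13%), against 28.1%. The replicates overlapped for the other 37. By complex, A was above B for 6 of 11 Pol II genes, 11 of 29 Mediator genes, 6 of 14 TFIID genes and 2 of 12 TFIIA to TFIIH genes, and B was above A for 2 in each of these groups.

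The members with B above A had differences from 0.13 for *Tbp* to 0.43 for *Med28*. The median difference was -0.13 for the members and -0.03 for all genes tested. With libraries scaled by the median ratio over genes, A was above B for 27 members (35.1%), against 30.3% of all genes tested, and B above A for 10 (13%), against 30%. The sign of the difference turned in 1 of the 77, *Med24*. Across the 77 members the FPKM gave a Spearman correlation of 0.983 for A1 with A2, 0.967 for B1 with B2 and between 0.950 and 0.970 across replicates. Over the 10481 genes tested it was 0.994 for A1 with A2, 0.975 for B1 with B2 and between 0.942 and 0.965 across replicates. These correlations run across genes, which are not independent replicates.

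**Figure D4:**
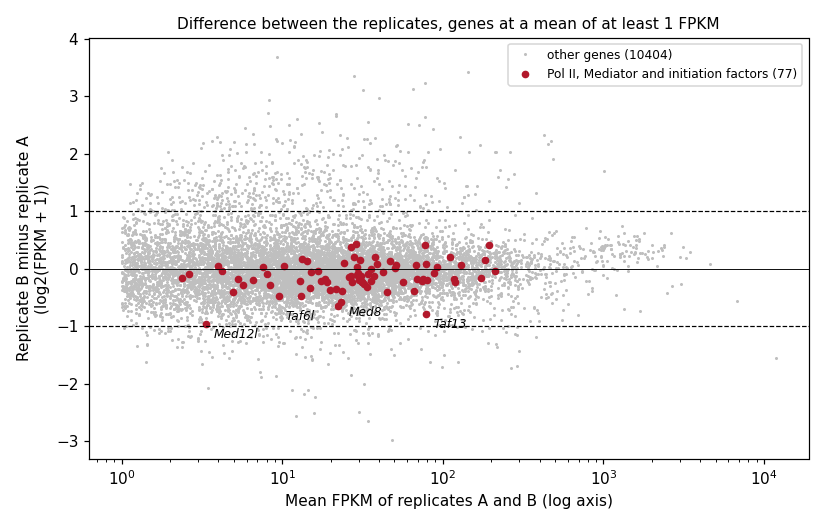
Difference between replicates B and A on the log2(FPKM + 1) scale against mean FPKM (log axis) for 77 members (red) and the other genes (grey) averaging 1 FPKM or more, with dashed lines at a difference of 1 in either direction. All members lie between the dashed lines, and the named genes are the 4 with a difference of at least 0.5.

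Members with short genes tended to have higher levels. Across the 77 members the Spearman correlation between FPKM and the gene span in the tables was -0.529, with -0.540 in replicate A and -0.522 in replicate B, and across the 10481 genes tested it was -0.231. The points share their libraries, and FPKM itself is divided by transcript length. The 31 members spanning under 10 kb had a median of 51.3 FPKM and none was below 21.6 FPKM, where *Med22* is placed by its separate rows in B2. The 13 members spanning at least 50 kb, without *Med17* and *Polr2l*, had a median of 13.1 FPKM, from 2.61 FPKM for *Med14* to 118 FPKM for *Gtf2i*.

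**Figure D5:**
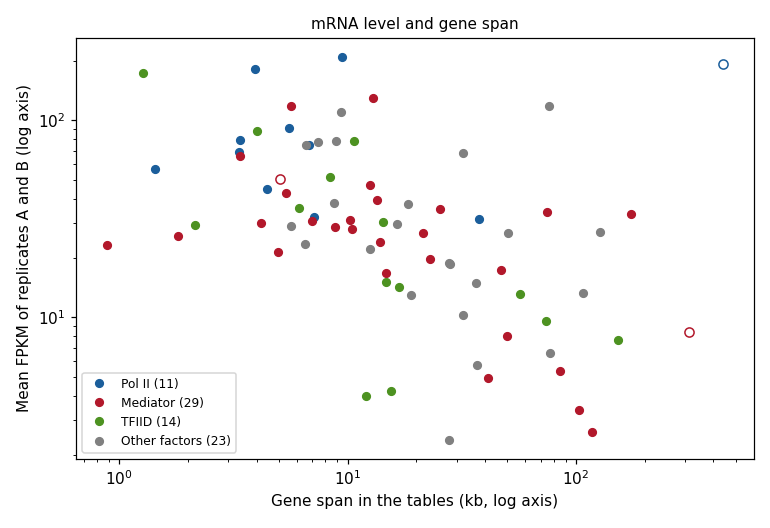
Mean FPKM against gene span in kb (both log axes) for the 77 members averaging 1 FPKM or more, coloured by complex, with open symbols for the 3 members whose rows hold other whole genes. Short genes are all at moderate or high levels, while the filled symbols at 50 kb or more reach from *Med14* at 2.61 FPKM up to *Gtf2i* at 118 FPKM. *Polr2l*, an open symbol, lies above them at 439 kb and 194 FPKM.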

How the data were processed

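The authors aligned polyA RNA-seq reads to rn6 with STAR. The submitters' processing notes name StringTie, whose table layout the files have, while the methods name Rsubread and DESeq2 for expression levels, and versions are not given in the sources used here. The deposited FPKM were used as given. The deposited TPM, by the authors, served as an alternative. Mean read depth was deposited for each gene as coverage, a signal not scaled to the library, and its ratio to FPKM (24.3, 22.7, 24.4 and 6.83 in A1, A2, B1 and B2) gave the relative depth. Counts and intervals are unknown. Rows of the same name were added up. Differences are of log2(FPKM + 1), averaged over technical libraries. Levels of different genes were compared as FPKM, per length. Strand-specific counting is not stated, so overlapping antisense genes may share reads, and 14 members overlap another gene. Replicate grouping follows the sample labels. Start-seq, done on 2 further samples, was not analysed here.

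Named genes are all Pol II subunits, the 3 highest and lowest of other complexes, paralogues, members below 1 FPKM and members counted as differing, with counts for non-member genes. Other genes named, and values of non-members, were chosen after their values were seen. Members and lists were chosen with earlier results of these data known, and binding partners and motifs after the levels were seen. With 1 condition no test was made, and SDs describe 2 cultures. Scripts ran on Python 3.11.15 (numpy 2.4.6, pandas 2.3.3, matplotlib 3.10.9, scipy 1.17.1). Promoters are those of RefSeq for GRCr8, with 1 annotated start for each symbol, and these starts were not checked against Start-seq.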

Additional observations from a re-analysis of the deposited data

Results flagged for a closer look

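In 88 values, the levels of the 79 members and the 9 paralogue ratios, a single library was looked for whose gap to the nearest other library took up most of the range of the 4, past the critical value of Dixon's test. There were 4, and chance gives about 1 in 20 for independent samples, which technical pairs are not. *Gtf2h2*, a core subunit of TFIIH, had 14.0 FPKM in B2 and 20.4 to 20.9 FPKM in the others. *Gtf2ird1* had 15.8 FPKM in B2 and 12.3 to 12.6 FPKM elsewhere. *Med16* had 55.4 FPKM in B1 and 43.6 to 45.2 FPKM elsewhere. The log2 ratio of *Tbp* to *Tbpl1* was -1.27 in B2 and -1.53 to -1.50 in the others. Of the 4, 3 were in B2, the library with 28.1% of the depth of B1, and the part of depth was not tested.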

How the results depend on the processing

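For 18 results, 104 alternatives left the value within 1 SD of the replicates, or a count within 1.5 times, and 25 did not. For these the cause was not tested, except where the setting changes the set of genes. The median over the members was 49.3 as TPM, 28.8 FPKM with the highest row of a name and 29.8 FPKM for members averaging 1 FPKM or more, and 29.0 to 29.3 FPKM with a replicate left out. The count of members differing between A and B, 0 as reported, was 1 (*Med12l*) with a pseudocount of 0.1 (8.53% of all genes tested), with TPM (6.91%), without A2 (6.62%) and without B2 (5.5%), 1 without B1 (*Taf6l*, 8.47%), and 4 at a difference of at least 0.58 (16.5%). The choice of log2 of the replicate mean, added after the data were seen, left it at 0. The median of the 9 paralogue ratios was 1.24 with a pseudocount of 1, against 2.50, and no pair changed sign. It was 1.84 in replicate A alone and 2.97 in replicate B alone, which counted as within 1 SD. The SD of log2 FPKM among subunits was 1.17 for Pol II with the highest row, 1.03 for Mediator at 5 FPKM or more, 2.89 and 1.40 for TFIID above 0 and at 5 FPKM or more, and 2.13 and 1.02 for the general factors, where the set of genes changes with the threshold. The correlation with gene span was -0.496 with the highest row, -0.544 without B2, -0.458 as Pearson's, and -0.574 without the 3 joined rows, an alternative added later. Protein length was not run, as no protein table was used here. No paired analysis was possible because a single condition was sampled. Counts were not used, so the depth behind single values is known only as coverage.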
